A study of Homo sapiens with 27 samples.

Results

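The 50 genes described here encode proteins that degrade RNA or prepare it for degradation. They were chosen by name, from what the proteins do, with earlier results of these data known. All 50 were found among the 20268 gene symbols of the count table. By role they comprised 9 factors of nonsense-mediated decay (NMD), 9 subunits of the exosome core, 5 nucleases, 8 exosome cofactors, 13 factors of deadenylation and 6 of decapping.

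RNA sequencing was done on 3 human prostate cancer cell lines, each infected with lentivirus encoding a control hairpin RNA (CTRL sh) or a hairpin that targets CPSF1 (CPSF1 sh1 or CPSF1 sh2), with 3 replicates in each of 9 groups. LNCaP is an androgen-sensitive line, LNCaP95 is a hormone-insensitive line derived from it, and 22Rv1 is a hormone-insensitive line of separate origin. All 27 libraries came from stably infected, puromycin-selected cells, with 2 µg/mL of the drug for LNCaP and 22Rv1 and 1 µg/mL for LNCaP95, which also grew without phenol red. Each well received 500000 cells, which then grew for 72 h in RPMI 1640 with 10% FBS, and libraries were made with a stranded mRNA kit from total RNA. The control cells thus carried virus and drug selection as well. The labels do not say whether replicates came from separate infections, so p-values measure the spread between these samples, which may be technical.

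Messenger RNA is usually degraded in order: deadenylases of the CCR4-NOT and PAN2-PAN3 complexes shorten the poly(A) tail, the DCP2 enzyme removes the cap, and XRN1 digests the body from the 5′ end, while the exosome digests from the 3′ end with the help of helicase complexes. NMD is the branch that recognises transcripts with a premature stop codon, through UPF1 and its partners. CPSF1 is the large scaffold of the complex that reads the poly(A) signal AAUAAA and lets the transcript be cleaved and given its tail.

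The poly(A) signal is the sequence read by the complex to which CPSF1 belongs, and it is shown for the genes that were called in the same direction in all lines. Each window holds 30 bases of the reference around the hexamer nearest the annotated 3′ end of the gene, on the gene's strand in GRCh37, with the hexamer in capitals, read as DNA. EXOSC4 was the other gene of this kind, and its window is not shown.
UPF3B: cgttttgatgtcAATAAAtagtaacagcat
TTC37: tgaactttctgaAATAAAacaaaaatacag
SKIV2L2: ttgccaatactgAATAAAagagttatttct
CNOT10: atgccataggcaATTAAAacataattttat
EDC4: aaatgcttttggAATAAAatggagtatgtg
The UPF3B window lies at chrX:118967996-118968025 on the minus strand and that of TTC37 at chr5:94799600-94799629, also minus. On the plus strand, SKIV2L2 is at chr5:54721377-54721406, CNOT10 at chr3:32815333-32815362 and EDC4 at chr16:67918384-67918413. Each lies at the end of the last exon, in the 3′ UTR or running past it.

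The hexamer AATAAA was found in the last 50 annotated bases of 32 of the 50 genes, or 64%, and its common variant ATTAAA, counted only where the former was absent, in 9, or 18%. Among 10297 genes tested in all lines with a readable 3′ end, the shares were 60.9% and 14.6%. CNOT10 carried the variant, whereas UPF3B, TTC37, SKIV2L2 and EDC4 carried AATAAA. Only the sense strand was searched, and the annotated end is the furthest 3′ end among the transcripts of each gene, which these cells need not use.

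Between 8515624 and 15904518 counts fell on genes in each library. With the hairpins pooled, libraries varied within control and knockdown beyond counting error by a coefficient of 4.95% (LNCaP), 7.09% (LNCaP95) and 6.08% (22Rv1). These values thus include differences between hairpins as well as between replicates. CPSF1 itself was at 63.6% of its control level in LNCaP cells, at 53.9% for LNCaP95 and at 70.7% for 22Rv1, and in each line all 6 CPSF1 sh libraries were below all 3 CTRL sh libraries. A chi-square statistic comparing replicates, per degree of freedom, which is 1 for counting error alone, ran from 1.38 to 6.98. It was highest for replicate 3 of CPSF1 sh1 in 22Rv1 against replicate 1, so that library is named below where it decides a count. The luminal markers HOXB13, KRT8 and KRT18 ran from 264 to 862 CPM and KLK3 from 37.1 to 1960 CPM. Of the markers of other cells, KRT5, TP63 and PTPRC were at 4 counts or fewer in every library, and COL1A1 and VIM reached 69.5 and 121 CPM.

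All 50 genes exceeded 2 CPM (counts scaled to the library's total) in every library, so none was lost to the expression filter. With an adjusted p-value below 0.05 in edgeR's quasi-likelihood test, 16 were higher and 11 lower in LNCaP cells with CPSF1 knockdown, against 31.1% and 31.0% of all 11096 genes tested (62.1% in either direction). LNCaP95 cells had 12 higher and 20 lower, against 33.2% and 33.7% of 11143 genes (66.9% in either direction). In 22Rv1 cells 10 were higher and 4 lower, against 12.7% and 14.3% of 11728 genes (26.9% in either direction). The median log2 fold change of the 50 genes was 0.04, −0.08 and 0.05 in the 3 lines, with the median of all genes at −0.00036, 0.00129 and −0.00235.

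In these bulk libraries, fewer cells with a transcript and less of it per cell cannot be told apart, and CPM are relative to the rest of the library. Scaled by library size alone, LNCaP95 cells had 18 of the 50 genes higher and 13 lower, while all genes went from 3694 higher and 3756 lower to 4685 and 2850. The 22Rv1 count of 10 was 19 without replicate 3 of CPSF1 sh1, and it was between 3 and 6 without any single library of CTRL sh or CPSF1 sh2. The 6 CPSF1 sh libraries all lay above or all below the 3 CTRL sh libraries for 23 of the 50 genes in LNCaP (55.6% of all genes), 30 in LNCaP95 (60.0%) and 14 in 22Rv1 (28.2%).

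**Figure D1:**
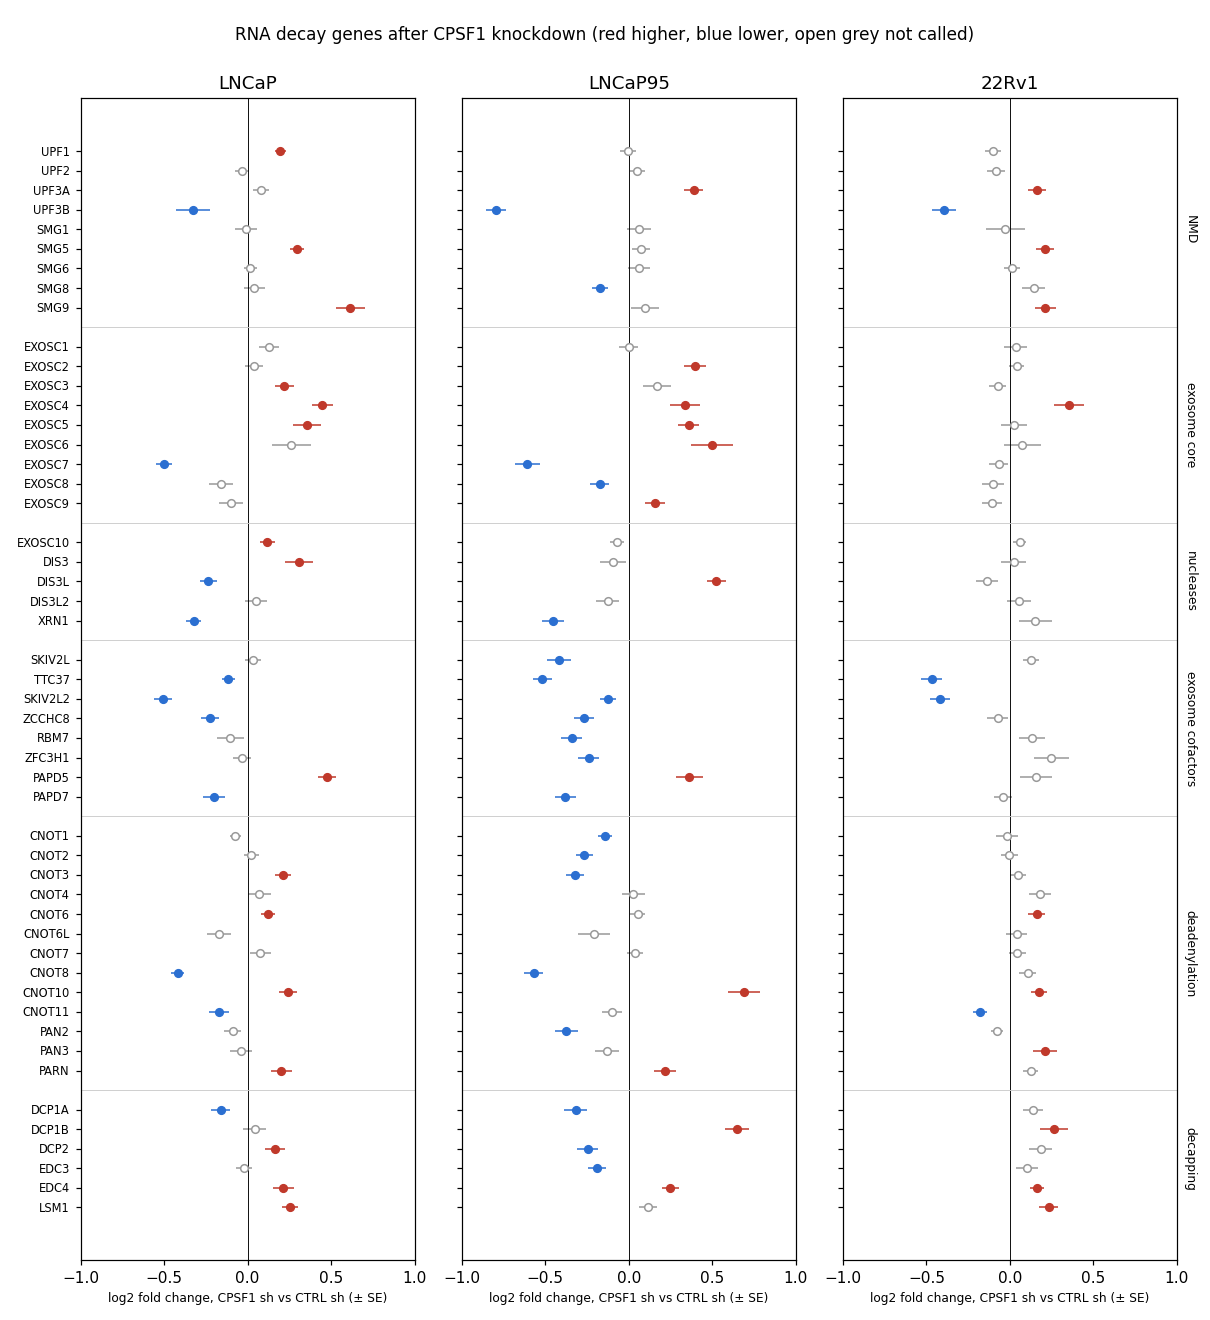
Log2 fold change of each of the 50 genes (CPSF1 sh against CTRL sh, horizontal axis, with standard error) in the 3 lines, grouped by role. Filled points passed the test (red higher, blue lower), open grey points did not. Exosome cofactors stand mostly left of 0 in LNCaP95 cells, where 7 of 8 were lower, against 33.7% of all genes. With library size alone 5 of 8 were lower, against 2850 of 11143 genes.

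The branch that recognises premature stop codons had calls in both directions, as did all genes. Of its 9 factors, LNCaP cells had 3 higher and 1 lower, LNCaP95 had 1 higher and 2 lower (3 and 1 with library size alone), and 22Rv1 had 3 higher and 1 lower. The shares higher among all genes were 31.1%, 33.2% and 12.7%, and the shares lower 31.0%, 33.7% and 14.3%. With library size alone 4685 of 11143 genes were higher and 2850 lower in LNCaP95. UPF3B, which links UPF2 to the exon junction complex, was the member that fell in every line. Its normalized CPM in LNCaP cells were 19.2, 16.3 and 14.7 with CTRL sh, 14.1, 12.3 and 11.9 with CPSF1 sh1, and 13.3, 15.1 and 12.9 with CPSF1 sh2. Replicate 2 of CPSF1 sh2 thus exceeded the lowest control, and the groups overlapped. The control libraries of LNCaP95 held 34.1, 34.8 and 36.2 CPM, those of CPSF1 sh1 20.6, 21.1 and 19.9, and those of CPSF1 sh2 19.7, 20.5 and 19.1. In 22Rv1 cells the values were 33.0, 31.7 and 33.0 with CTRL sh, 26.5, 27.2 and 25.3 with CPSF1 sh1, and 24.3, 22.8 and 22.7 with CPSF1 sh2. No library overlapped between control and knockdown in these lines. The log2 fold change was −0.33 ± 0.10 (SE, adjusted p = 0.0118) in LNCaP, −0.79 ± 0.06 (adjusted p = 4.02e-07) in LNCaP95 and −0.39 ± 0.07 (adjusted p = 0.00126) in 22Rv1 cells. The LNCaP call was lost without replicate 1 of CTRL sh, at −0.22.

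UPF3A, its paralog, rose by 0.39 ± 0.06 on the log2 scale in LNCaP95 and by 0.16 ± 0.05 in 22Rv1 cells, and its value in LNCaP was 0.08 ± 0.05, which did not pass. SMG9, a partner of the kinase SMG1 that phosphorylates UPF1, had the largest rise of the 50 genes in LNCaP cells. It measured 16.2, 17.1 and 17.0 CPM with CTRL sh, 25.2, 22.4 and 24.2 with CPSF1 sh1, and 26.8, 26.0 and 29.4 with CPSF1 sh2. Every knockdown library was above every control, with a log2 fold change of 0.62 ± 0.09 (adjusted p = 2.01e-05). In 22Rv1 cells the rise was 0.21 ± 0.06 and in LNCaP95 the value was 0.10 ± 0.08, below the threshold. SMG5, an adaptor that binds phosphorylated UPF1, rose by 0.30 ± 0.04 in LNCaP and 0.21 ± 0.05 in 22Rv1 cells.

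UPF1, the helicase of the pathway, rose in LNCaP cells alone among the 3 fits (0.20 ± 0.03, adjusted p = 0.000129), and SMG8, the other partner of SMG1, fell in LNCaP95 (−0.17 ± 0.05, adjusted p = 0.00534). UPF2, SMG1 and the endonuclease SMG6 passed in no line, with log2 values between −0.08 and 0.06. The counts of SMG1 are uncertain, since near-identical copies of parts of the gene lie on the same chromosome.

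The barrel of the exosome threads RNA towards its nucleases. Of the 9 subunits LNCaP cells had 3 higher and 1 lower, LNCaP95 had 5 higher and 2 lower, and 22Rv1 had 1 higher and 0 lower. The higher shares were thus 33.3%, 55.6% and 11.1%, against 31.1%, 33.2% and 12.7% of all genes. The lower shares were 11.1%, 22.2% and 0%, against 31.0%, 33.7% and 14.3%. EXOSC4, a subunit of the ring, rose in every line. With CTRL sh it measured 37.2, 37.5 and 36.2 CPM in LNCaP, with CPSF1 sh1 50.3, 49.3 and 44.6, and with CPSF1 sh2 51.6, 52.8 and 53.6. In LNCaP95 cells the values were 28.0, 25.9 and 28.9, then 33.4, 30.4 and 32.1, then 35.8, 37.5 and 40.5 in the same order. The 22Rv1 libraries gave 39.1, 37.1 and 36.5 with CTRL sh, 43.0, 39.6 and 52.2 with CPSF1 sh1, and 48.4, 53.4 and 52.1 with CPSF1 sh2. All knockdown libraries exceeded all controls in the 3 lines. The log2 fold changes were 0.45 ± 0.06 (adjusted p = 1.54e-05), 0.34 ± 0.09 (adjusted p = 0.00534) and 0.36 ± 0.09 (adjusted p = 0.00978).

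EXOSC7, a neighbouring ring subunit, went the other way in LNCaP and LNCaP95 cells. In LNCaP it measured 81.1, 80.8 and 85.3 CPM with CTRL sh, 59.7, 59.3 and 63.4 with CPSF1 sh1, and 56.4, 55.2 and 56.3 with CPSF1 sh2. LNCaP95 gave 97.8, 96.3 and 99.4, then 67.4, 73.1 and 68.7, then 57.9, 59.8 and 57.6. The groups were well apart, and the log2 fold changes were −0.50 ± 0.05 (adjusted p = 5.5e-07) and −0.61 ± 0.07 (adjusted p = 1.48e-05). In 22Rv1 cells the controls, at 48.9, 51.8 and 49.1 CPM, overlapped the knockdown libraries, which ran from 44.9 to 51.0, and the value was −0.07 ± 0.06. The annotated span of EXOSC7 overlaps that of CLEC3B on the same strand, so its counts are uncertain, as are those of EXOSC3, which overlaps RP11-613M10.9 in the same way.

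EXOSC5 rose in both LNCaP (0.35 ± 0.08) and LNCaP95 cells (0.36 ± 0.07). EXOSC3, of the cap that sits on the ring, rose in LNCaP (0.22 ± 0.06), while EXOSC2, EXOSC6 and EXOSC9 rose in LNCaP95 (0.40 ± 0.07, 0.50 ± 0.13 and 0.16 ± 0.06). EXOSC8 fell in LNCaP95 (−0.17 ± 0.06), and EXOSC1 passed in no line.

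The nucleases split by line. Of 5, LNCaP cells had 2 higher and 2 lower, LNCaP95 had 1 higher and 1 lower, and 22Rv1 had 0 of either. In either direction that was 80%, 40% and 0%, against 62.1%, 66.9% and 26.9% of all genes. DIS3L, the catalytic subunit of the cytoplasmic exosome, measured 84.7, 80.1 and 87.1 CPM with CTRL sh in LNCaP cells, 66.0, 69.8 and 68.6 with CPSF1 sh1, and 75.1, 72.2 and 75.5 with CPSF1 sh2. In LNCaP95 cells it measured 44.6, 48.0 and 49.2 with CTRL sh, 67.9, 63.8 and 68.1 with CPSF1 sh1, and 71.0, 71.6 and 65.0 with CPSF1 sh2. All knockdown libraries were thus below the controls in the former line and above them in the latter. The log2 fold changes were −0.23 ± 0.05 (adjusted p = 0.000754) and 0.52 ± 0.06 (adjusted p = 5.97e-06), and in 22Rv1 cells the value was −0.14 ± 0.07 (adjusted p = 0.134). DIS3, its nuclear counterpart, rose in LNCaP by 0.31 ± 0.08 and had values of −0.09 ± 0.08 and 0.02 ± 0.07 in the other lines.

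XRN1, the main exonuclease that works from the 5′ end, fell by 0.32 ± 0.04 in LNCaP and by 0.45 ± 0.07 in LNCaP95 cells on the log2 scale. EXOSC10, a nuclear exosome nuclease, rose in LNCaP (0.12 ± 0.04). DIS3L2, which works apart from the exosome, passed in no line. No nuclease passed in 22Rv1 cells, where edgeR called 0 of 5, against 26.9% of all genes. In that edgeR fit 0 were below an unadjusted p of 0.05 (DIS3L was lowest, at 0.0536), and DESeq2 called 0. With the hairpins fitted apart, XRN1 was higher with CPSF1 sh2 (0.27, adjusted p = 0.0223) and DIS3L lower with CPSF1 sh1 (−0.20, adjusted p = 0.0461) in that line. The 22Rv1 values of XRN1 ran from 75.0 CPM in replicate 3 of CPSF1 sh1 to 114.3 in replicate 1 of CPSF1 sh2, around controls of 90.9, 87.2 and 91.2.

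Exosome cofactors fell more often than they rose. Of 8, LNCaP cells had 4 lower and 1 higher, LNCaP95 had 7 lower and 1 higher, and 22Rv1 had 2 lower and 0 higher, and with library size alone 5 of 8 were lower in LNCaP95. In 22Rv1 cells SKIV2L and ZFC3H1 leaned higher, at unadjusted edgeR p-values of 0.0217 and 0.0337. The shares lower among all genes were 31.0%, 33.7% and 14.3%, and the shares higher 31.1%, 33.2% and 12.7%. With library size alone 2850 of 11143 genes were lower in LNCaP95. The 8 include the Ski complex (SKIV2L, TTC37), which feeds RNA to the cytoplasmic exosome, and the nuclear helicase SKIV2L2 (MTR4) with its partners.

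TTC37, the scaffold of the Ski complex, fell in every line. In LNCaP cells it measured 112.1, 116.4 and 116.2 CPM with CTRL sh, 102.1, 112.0 and 108.6 with CPSF1 sh1, and 102.0, 108.1 and 103.6 with CPSF1 sh2. In LNCaP95 the values were 120.5, 141.2 and 125.3, then 91.1, 97.3 and 88.9, then 87.7, 90.5 and 84.8. In 22Rv1 they were 74.6, 70.8 and 79.8, then 55.5, 58.5 and 48.1, then 55.5, 52.2 and 55.5. The groups nearly touched in LNCaP and were far apart in the other lines. Log2 fold changes were −0.11 ± 0.04 (adjusted p = 0.0223), −0.52 ± 0.06 (adjusted p = 6.85e-06) and −0.47 ± 0.06 (adjusted p = 0.000149). The LNCaP call was lost with CPSF1 sh1 only, at −0.09, and without replicate 2 or replicate 3 of CTRL sh, at −0.11 in each case.

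SKIV2L2, which unwinds RNA for the nuclear exosome, also fell in the 3 lines, but with another order of size. LNCaP libraries held 111.1, 97.6 and 101.9 CPM with CTRL sh, 76.1, 75.5 and 78.1 with CPSF1 sh1, and 70.3, 69.7 and 68.7 with CPSF1 sh2. Those of LNCaP95 held 91.9, 105.2 and 98.8, then 87.4, 91.5 and 93.9, then 88.0, 91.9 and 89.7, so that the groups overlapped. Those of 22Rv1 held 104.8, 107.2 and 111.0, then 91.0, 84.3 and 79.1, then 79.2, 73.0 and 76.1. The log2 fold change was −0.51 ± 0.05 (adjusted p = 1.17e-06) in LNCaP, −0.12 ± 0.05 (adjusted p = 0.0399) in LNCaP95 and −0.42 ± 0.06 (adjusted p = 0.000297) in 22Rv1 cells. The LNCaP95 call was lost in 8 of 20 alternatives. The value was −0.04 with library size alone, −0.11 with CPSF1 sh1 only and −0.08 without replicate 2 of CTRL sh. It was also lost without replicate 3 of CTRL sh, replicate 1 of CPSF1 sh1 or any replicate of CPSF1 sh2.

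The partners of SKIV2L2 fell in LNCaP95 with an exception. ZCCHC8 and RBM7, which join it in the NEXT complex, fell by 0.27 ± 0.06 and 0.34 ± 0.06 in LNCaP95, and ZCCHC8 also fell in LNCaP (−0.22 ± 0.05). ZFC3H1, of the complex that captures polyadenylated nuclear RNA, fell in LNCaP95 (−0.24 ± 0.06), as did SKIV2L (−0.42 ± 0.07). The polymerases that add short tails diverged. PAPD7 fell in LNCaP (−0.20 ± 0.07) and LNCaP95 (−0.38 ± 0.06), while PAPD5 rose in both (0.48 ± 0.05 and 0.36 ± 0.08). With the hairpins fitted apart in edgeR, PAPD7 in LNCaP fell with CPSF1 sh1 (−0.30, adjusted p = 0.000203). With CPSF1 sh2 it was not called there (−0.11, adjusted p = 0.088).

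PAPD5 was among the 3 largest rises in LNCaP cells, with 44.1, 44.1 and 43.2 CPM for CTRL sh, 56.1, 60.7 and 61.2 for CPSF1 sh1, and 58.9, 62.6 and 65.3 for CPSF1 sh2. No knockdown library came near the controls. In 22Rv1 cells its value was 0.16 ± 0.09, with 33.7 CPM in replicate 3 of CPSF1 sh1 and 47.4 in replicate 3 of CPSF1 sh2 as the extremes.

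Of the 13 deadenylation factors, LNCaP cells had 4 higher and 2 lower, LNCaP95 had 2 higher and 5 lower, and 22Rv1 had 3 higher and 1 lower. With library size alone LNCaP95 had 4 higher and 4 lower, against 4685 and 2850 of 11143 genes. In either direction 46.2%, 53.8% and 30.8% were called in LNCaP, LNCaP95 and 22Rv1, against 62.1%, 66.9% and 26.9% of all genes. CNOT10, a subunit of CCR4-NOT that works as a pair with CNOT11, rose in every line. In LNCaP95 cells, where it rose most, it measured 40.0, 42.1 and 39.4 CPM with CTRL sh, 60.0, 57.5 and 57.7 with CPSF1 sh1, and 70.8, 71.2 and 76.3 with CPSF1 sh2. The hairpins did not overlap each other there. LNCaP gave 60.2, 58.5 and 59.8, then 65.1, 77.9 and 71.3, then 66.9, 69.3 and 70.7. 22Rv1 gave 71.2, 72.9 and 70.9, then 79.6, 79.4 and 78.2, then 83.2, 78.4 and 85.5. Log2 fold changes were 0.24 ± 0.05 (adjusted p = 0.00124) in LNCaP, 0.69 ± 0.10 (adjusted p = 4.36e-05) in LNCaP95 and 0.17 ± 0.05 (adjusted p = 0.0163) in 22Rv1 cells. The 22Rv1 call was lost with CPSF1 sh1 only, at 0.15, and without replicate 1 or replicate 3 of CTRL sh, at 0.17 in each case. CNOT11 fell in LNCaP (−0.17 ± 0.06) and in 22Rv1 cells (−0.18 ± 0.04). With the hairpins fitted apart in edgeR, CNOT11 in LNCaP fell with CPSF1 sh2 (−0.26, adjusted p = 9.96e-05). With CPSF1 sh1 it was not called there (−0.08, adjusted p = 0.165).

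CNOT8, a catalytic deadenylase of the complex, fell in both related lines. Its LNCaP values were 84.6, 85.0 and 82.1 CPM with CTRL sh, 60.9, 62.5 and 64.9 with CPSF1 sh1, and 62.8, 62.8 and 62.9 with CPSF1 sh2. In LNCaP95 they were 145.4, 141.9 and 138.5, then 100.1, 104.6 and 99.3, then 90.4, 91.6 and 87.3. Control and knockdown were apart in both, with log2 fold changes of −0.42 ± 0.04 (adjusted p = 3.45e-07) and −0.57 ± 0.06 (adjusted p = 3.41e-06). In 22Rv1 cells the controls were 82.8, 79.2 and 87.5 and the knockdown libraries 84.2 to 94.2, for 0.11 ± 0.05 (adjusted p = 0.133). CNOT7, its close relative, passed in no line.

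CNOT3, a regulatory subunit of the complex, was called in opposite directions. With CTRL sh it measured 67.9, 71.0 and 65.8 CPM in LNCaP cells, with CPSF1 sh1 83.3, 79.0 and 80.1, and with CPSF1 sh2 80.0, 79.2 and 73.4. In LNCaP95 the order was reversed, with 97.4, 84.6 and 94.8 for CTRL sh, 76.8, 71.4 and 74.1 for CPSF1 sh1, and 68.4, 76.4 and 76.0 for CPSF1 sh2. The log2 fold changes were 0.21 ± 0.05 (adjusted p = 0.00102) and −0.32 ± 0.06 (adjusted p = 0.000266), and in 22Rv1 cells the value was 0.05 ± 0.05 (adjusted p = 0.481).

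Among the remaining factors, the scaffold CNOT1 (−0.14 ± 0.04), CNOT2 (−0.27 ± 0.05) and the deadenylase PAN2 (−0.37 ± 0.07) fell in LNCaP95. The deadenylase CNOT6 rose in LNCaP (0.12 ± 0.04) and 22Rv1 (0.16 ± 0.05), and PARN, which trims tails outside CCR4-NOT, rose in LNCaP (0.20 ± 0.06) and LNCaP95 (0.22 ± 0.07). PAN3, the partner of PAN2, rose in 22Rv1 cells (0.21 ± 0.07, edgeR adjusted p = 0.044), with control and knockdown libraries overlapping. Fitted apart, CPSF1 sh2 gave 0.31 (adjusted p = 0.00089) and CPSF1 sh1 gave 0.11, which did not pass (adjusted p = 0.247). CNOT4, a ubiquitin ligase, and CNOT6L passed in no line. The span of PAN2 overlaps that of CNPY2 on the same strand, and SMG8 and RBM7 also overlap a gene on their strand, so their counts are uncertain too.

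Of the 6 decapping factors, LNCaP cells had 3 higher and 1 lower, LNCaP95 had 2 higher and 3 lower (3 and 1 with library size alone), and 22Rv1 had 3 higher and 0 lower. The shares called in either direction were 66.7%, 83.3% and 50%, against 62.1%, 66.9% and 26.9% of all genes. With library size alone 4685 of 11143 genes were higher and 2850 lower in LNCaP95. EDC4, the scaffold that brings the decapping enzyme to its activators, rose in every line. LNCaP libraries held 119.2, 126.0 and 125.9 CPM with CTRL sh, 156.5, 150.8 and 149.6 with CPSF1 sh1, and 140.5, 144.0 and 121.0 with CPSF1 sh2, and the last of these lay within the controls. LNCaP95 libraries held 108.3, 98.1 and 105.9, then 129.0, 114.7 and 123.2, then 122.1, 126.1 and 127.8. 22Rv1 libraries held 184.6, 176.8 and 178.5, then 186.9, 202.6 and 204.8, then 198.1, 206.3 and 209.8. Outside LNCaP the groups did not overlap. The log2 fold change was 0.21 ± 0.06 (adjusted p = 0.00892) in LNCaP, 0.25 ± 0.05 (adjusted p = 0.000789) in LNCaP95 and 0.16 ± 0.04 (adjusted p = 0.0152) in 22Rv1 cells. The LNCaP call was lost without replicate 1 of CTRL sh (0.19) and the 22Rv1 call with CPSF1 sh1 only (0.15) and without replicate 2 (0.15) or replicate 3 (0.16) of CTRL sh.

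DCP2, the decapping enzyme, was called in opposite directions. With CTRL sh, CPSF1 sh1 and CPSF1 sh2 in turn it measured 113.1, 107.0 and 107.3, then 108.0, 112.9 and 122.1, then 122.4, 129.3 and 137.1 CPM in LNCaP cells. In LNCaP95 the values were 215.4, 224.2 and 211.9, then 193.7, 202.2 and 192.7, then 175.8, 166.8 and 166.8. The groups overlapped in LNCaP, by CPSF1 sh1 libraries, and not in LNCaP95. Log2 fold changes were 0.16 ± 0.06 (adjusted p = 0.0322) and −0.25 ± 0.06 (adjusted p = 0.00443), and 0.18 ± 0.07 (adjusted p = 0.0647) in 22Rv1 cells. In LNCaP the call was lost in 7 of 20 alternatives. With CPSF1 sh1 only the value was 0.07, without replicate 2 or 3 of CTRL sh or of CPSF1 sh2 it was 0.12 to 0.15, and with looser or no expression filters it was 0.14. The call was lost in LNCaP95 with library size alone (−0.16).

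The activators of DCP2 also parted. DCP1B was among the largest rises in LNCaP95 cells, with 19.7, 19.3 and 18.5 CPM for CTRL sh, 32.1, 30.0 and 29.1 for CPSF1 sh1, and 32.2, 27.4 and 30.0 for CPSF1 sh2. It rose in 22Rv1 from 29.6, 29.5 and 31.5 CPM to 32.3, 35.1 and 32.0 with CPSF1 sh1 and to 40.1, 40.7 and 37.6 with CPSF1 sh2. The log2 fold changes were 0.65 ± 0.07 (adjusted p = 6.82e-06) and 0.26 ± 0.08 (adjusted p = 0.0324). The 22Rv1 call was lost in 8 of 20 alternatives, with CPSF1 sh1 only (0.14), with the replicate block (0.26) and without any single CTRL sh or CPSF1 sh2 library (0.23 to 0.30), while in LNCaP the value was 0.04 ± 0.07. DCP1A fell in LNCaP (−0.16 ± 0.06) and LNCaP95 (−0.32 ± 0.07), and EDC3, an enhancer of decapping, fell in LNCaP95 (−0.19 ± 0.06).

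LSM1, a subunit of the ring that binds trimmed tails and promotes decapping, completed the rises of 22Rv1 cells, with 37.0, 37.4 and 35.6 CPM for CTRL sh, 41.9, 41.4 and 43.7 for CPSF1 sh1, and 45.7, 41.5 and 44.2 for CPSF1 sh2. The groups did not overlap, for 0.23 ± 0.06 (adjusted p = 0.00799), and LSM1 rose in LNCaP as well (0.25 ± 0.05).

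**Figure D2:**
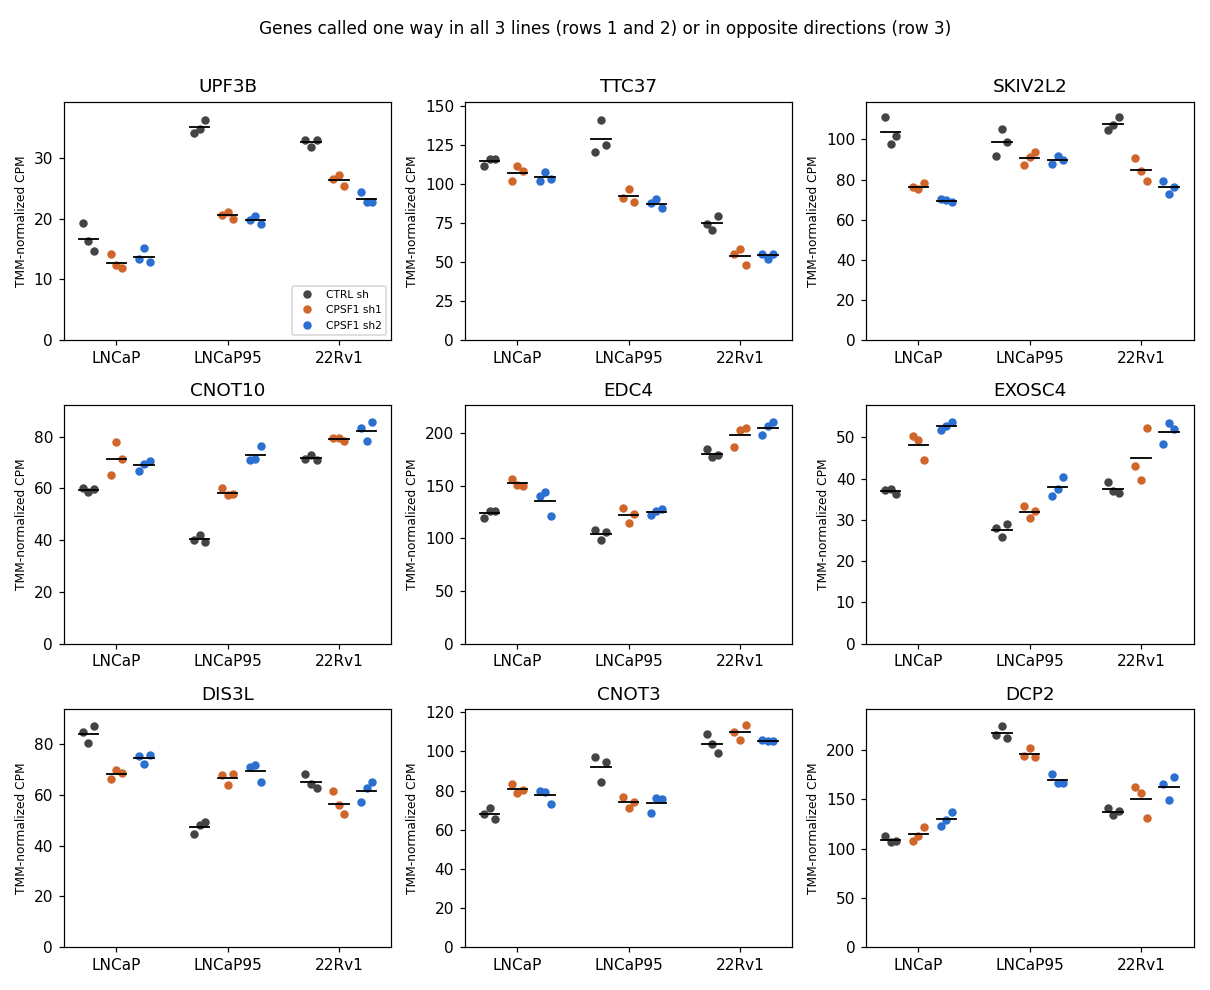
Normalized CPM (vertical axes, from 0) in each library of the 3 lines for the 9 genes called in the same direction in all lines or in opposite directions in a pair of lines. Points are libraries and bars group means of 3; UPF3B, TTC37 and SKIV2L2 fell, CNOT10, EDC4 and EXOSC4 rose, and DIS3L, CNOT3 and DCP2 moved oppositely in LNCaP and LNCaP95 cells.

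Across lines, CNOT10, EDC4 and EXOSC4 were the 3 of 50 genes higher in all lines, against 3.85% of the 10317 genes tested in each, and UPF3B, TTC37 and SKIV2L2 were the 3 lower in all, against 4.90%. Calls in opposite directions were made for 3 genes (14.4% of all), and 8 genes were called in no line (11.5%). The call of EXOSC4 in 22Rv1 was lost with CPSF1 sh1 only (0.26) and without replicate 3 of CTRL sh (0.34).

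The size of the knockdown effect was compared between lines by an interaction term in a fit of all 27 libraries. It differed for 19 of the 50 genes between LNCaP95 and LNCaP (50.9% of all genes), for 11 between 22Rv1 and LNCaP (40.4%) and for 27 between 22Rv1 and LNCaP95 (53.7%). DIS3L had the largest difference, 0.78 ± 0.08 on the log2 scale for LNCaP95 minus LNCaP (adjusted p = 7.61e-09). For CNOT8, 22Rv1 minus LNCaP95 was 0.67 ± 0.07 (adjusted p = 4.84e-09), and for SKIV2L it was 0.54 ± 0.09 (adjusted p = 6.5e-06). EDC4, EXOSC4 and LSM1 passed this test in none of the 3 comparisons. The CPSF1 level left by knockdown also differed, at 63.6%, 53.9% and 70.7% of control in LNCaP, LNCaP95 and 22Rv1. LNCaP95 differed in medium and drug dose as well, and the line cannot be told apart from these.

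The hairpins were also set against the control one at a time. In LNCaP, LNCaP95 and 22Rv1 cells CPSF1 sh1 gave 26, 32 and 10 genes called of 50 (62.6%, 66.4% and 19.9% of all genes), and CPSF1 sh2 gave 29, 38 and 21 (64.6%, 73.4% and 40.0%). These comparisons share their control libraries. A gene called with the hairpins pooled was not always called with each. In LNCaP, for example, PAPD7 and EXOSC10 were called with CPSF1 sh1 and not with CPSF1 sh2, and CNOT11 and DCP1A the reverse. In 22Rv1 cells UPF3A, CNOT6 and PAN3 were called with CPSF1 sh2 and not with CPSF1 sh1, and SMG9 the reverse. Tested against each other, the hairpins differed for 8, 14 and 5 genes (14.8%, 34.1% and 11.3% of all).

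CNOT10 in LNCaP95 was a gene of that kind, 0.32 ± 0.05 higher on the log2 scale with CPSF1 sh2 than with CPSF1 sh1 (adjusted p = 0.000134), as was CNOT6L, 0.34 ± 0.05 lower with CPSF1 sh2 (log2 difference −0.34, adjusted p = 5.93e-05). DCP2 differed in both related lines but with the sign of its knockdown effect, by 0.18 ± 0.05 in LNCaP and −0.21 ± 0.04 in LNCaP95 cells. EXOSC7 and CNOT8 were lower with CPSF1 sh2 in LNCaP95, by −0.25 ± 0.05 and −0.17 ± 0.05, and PAPD5 (0.28 ± 0.08) and DCP1B (0.25 ± 0.07) were higher with it in 22Rv1 cells. For UPF3B, TTC37 and SKIV2L2 the difference between hairpins passed in no line.

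Several of the 50 genes come in related pairs, and the ratio within a pair does not depend on how libraries are scaled. Of 7 pairs in 3 lines, 14 of 21 ratios changed by an exact two-sided permutation test over 84 splits, each at the smallest p that the design allows, 0.0238 (adjusted p = 0.0357 over the 21). In these 14 the 6 knockdown libraries all lay on the same side of the controls. The adjusted p passes because these ratios share the smallest p, so it does not single out any pair. Among all single genes 55.6%, 60.0% and 28.2% separated in that way in LNCaP, LNCaP95 and 22Rv1. No other pairs of genes were compared, so how often a ratio of other genes changes was not tested. LNCaP and LNCaP95 had 6 changed pairs each and 22Rv1 had 2.

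UPF3A over UPF3B was the pair whose ratio of counts rose in every line. It was 2.11, 2.51 and 2.73 with CTRL sh in LNCaP and 2.77 to 3.68 with knockdown. In LNCaP95 the ratio was 0.913, 0.886 and 0.886 with CTRL sh and 1.91 to 2.21 with knockdown, so that UPF3A passed from fewer to more counts than its paralog. In 22Rv1 it was 1.39, 1.36 and 1.45, then 1.79 to 2.28. The mean log2 ratio rose by 0.41, 1.18 and 0.56 in the 3 lines.

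DIS3 over DIS3L moved in opposite directions. The ratio was 0.371, 0.367 and 0.385 with CTRL sh and 0.474 to 0.608 with knockdown in LNCaP, and 0.930, 0.916 and 0.739 with CTRL sh and 0.485 to 0.620 with knockdown in LNCaP95 cells. The knockdown libraries of both lines thus covered much the same range, from controls on either side of it. In log2 terms it rose by 0.53 and changed by −0.61, and in 22Rv1 cells the difference was 0.16 (exact permutation p = 0.0714).

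Among the other pairs, CNOT7 over CNOT8 rose by 0.49 in LNCaP and 0.61 in LNCaP95 on the log2 scale, and differed by −0.06 in 22Rv1 (exact permutation p = 0.286). PAPD5 over PAPD7 rose by 0.68 in LNCaP and 0.75 in LNCaP95, and CNOT6 over CNOT6L by 0.31 and 0.27. SKIV2L over SKIV2L2 rose by 0.54 in LNCaP and 0.55 in 22Rv1, whereas in LNCaP95 the difference was −0.30 and the groups overlapped (exact permutation p = 0.0714). DCP1A over DCP1B changed in LNCaP95 alone of the 3 tests, by −0.97, from 6.19, 6.40 and 6.73 with CTRL sh to 2.84 to 3.68 with knockdown.

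**Figure D3:**
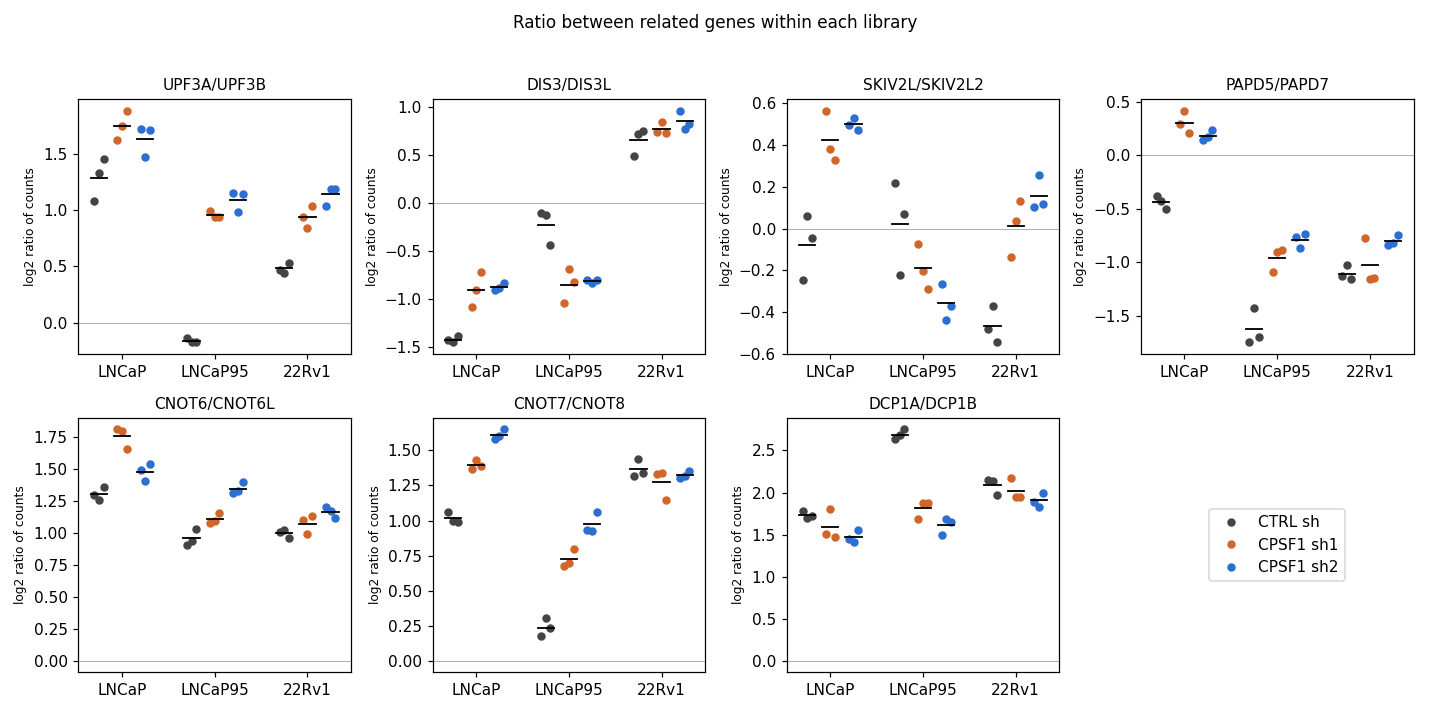
Log2 ratio of counts within each of 7 related pairs (vertical axes) in every library of the 3 lines, with bars for the mean of 3. UPF3A over UPF3B rose in all lines, and DIS3 over DIS3L rose by 0.53 in LNCaP and changed by −0.61 in LNCaP95 cells.

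The lines also differed before knockdown. Compared between CTRL sh libraries, the level differed for 40 of the 50 genes between LNCaP95 and LNCaP (76.1% of all genes), for 41 between 22Rv1 and LNCaP (78.7%) and for 40 between 22Rv1 and LNCaP95 (81.4%). Of these differences, 1, 4 and 2 were over 2-fold, and the share of all genes over 2-fold was not counted. UPF3B was 1.05 ± 0.09 higher on the log2 scale in LNCaP95 than in LNCaP. DIS3 (1.70 ± 0.10), SMG9 (1.66 ± 0.09), PAN2 (1.15 ± 0.07) and EXOSC5 (1.11 ± 0.09) were higher in 22Rv1 than in LNCaP, and RBM7 was lower in 22Rv1 than in LNCaP95 (−1.02 ± 0.08). For LNCaP95 the line, the medium and the drug dose differed together and cannot be told apart.

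Per kilobase of exon, the median level of the 50 genes in CTRL sh libraries was 14.6 CPM per kb in LNCaP cells, 15 in LNCaP95 and 16 in 22Rv1 cells, near the 12.8, 13 and 13 of all genes tested in each line. The highest was CNOT1 in LNCaP (65.1 ± 1.94, SD, n = 3), EXOSC10 in LNCaP95 (50.6 ± 0.82) and SMG5 in 22Rv1 cells (66.4 ± 0.19). SMG5 (49.7 ± 0.79) and CNOT1 (48.9 ± 1.42) followed EXOSC10 in LNCaP95 within about their spread. RBM7 was lowest in LNCaP (3.07 ± 0.18) and 22Rv1 (2.69 ± 0.22), and PAPD5 in LNCaP95 (3.62 ± 0.46).

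**Figure D4:**
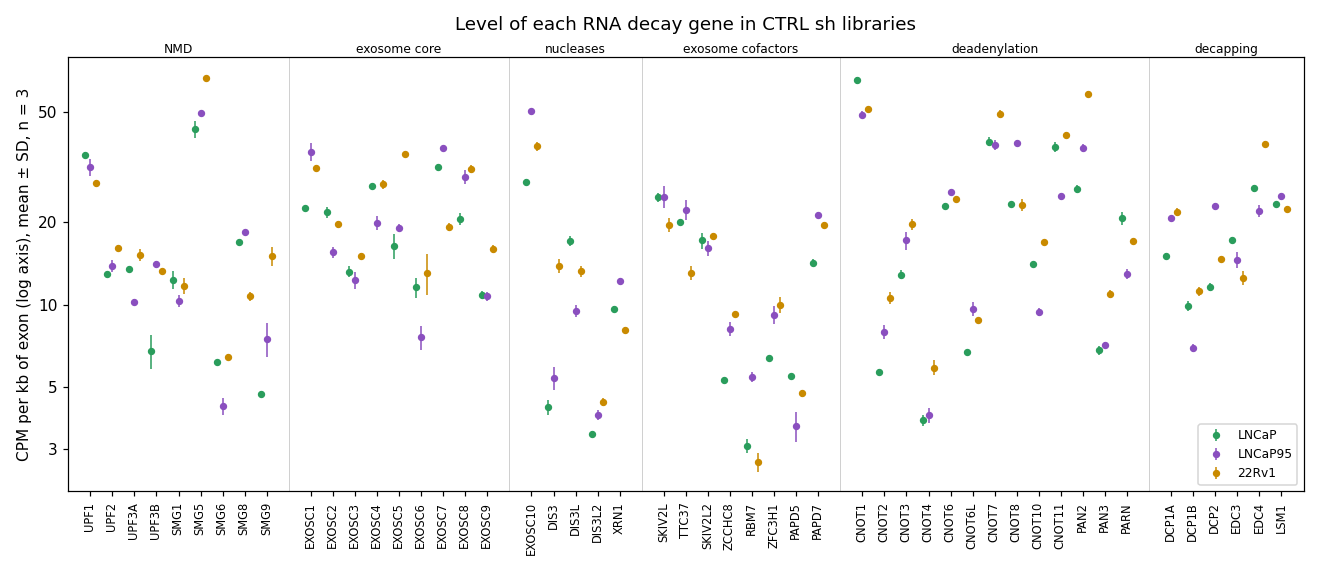
Level of each of the 50 genes in CTRL sh libraries, in CPM per kb of exon on a log axis, mean ± SD of 3 libraries per line. Levels run from 2.69 for RBM7 to 66.4 for SMG5, both in 22Rv1 cells, and DIS3, SMG9 and PAN2 stand higher in 22Rv1 cells.

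Position along the genome set the 50 genes little apart from others, and these counts are given without a test. An expressed gene on the same strand ended within 10 kb upstream of 10 of them, or 20%, against 14.5% of all genes. EDC4 starts 456 bases after the end of NUTF2, and of the other genes called in the same direction in every line none had such a neighbour. The median span was 35.4 kb against 33.1 kb, and the median exon length was 4906 against 4293 bases.

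Beyond the 50, 59 other genes that act in RNA decay or regulate it were counted. Their list was chosen by function, also with earlier results known. In LNCaP 19 were higher and 19 lower, in LNCaP95 17 and 20, and in 22Rv1 5 and 7. In either direction that was 64.4%, 62.7% and 20.3% of the list, against 62.1%, 66.9% and 26.9% of all genes. In all lines 2 were higher and 3 lower, against 3.85% and 4.90% of all genes. ANGEL2, a relative of the CCR4 deadenylases, rose in all lines (log2 0.25, 0.50 and 0.43), as did DHX34, an NMD helicase (0.26, 0.18 and 0.19). BTG1 (−0.25, −0.95 and −0.49) and TOB1 (−0.15, −0.24 and −0.17), which recruit CCR4-NOT to RNA, fell in all lines. ZFP36L1, which binds AU-rich elements and brings deadenylases to them, also fell in each (−0.42, −0.28 and −0.27).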

How the data were processed

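Total RNA from 27 cultures of 3 cell lines was sequenced as stranded mRNA libraries. The authors aligned reads to hg19 (GRCh37) with HISAT2 and counted fragments on exons of Ensembl 87 genes with featureCounts, and the deposited values are raw counts per gene symbol, with no normalization. The submitters' processing notes name HISAT2 2.1.0 and Subread 2.0.3. Removal of duplicate reads is not given in the sources used here. Intervals and precision cover counting error and the spread between libraries, with 8515624 to 15904518 counts per library.

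Each line was fitted in R 4.3.3 with edgeR 4.0.16 (legacy quasi-likelihood F-test, TMM, genes above 2 CPM in all 9 libraries, 3 CTRL sh against 6 CPSF1 sh libraries, Benjamini-Hochberg adjustment over all genes, threshold 0.05). Fits with 3 groups compared hairpins, and a fit of all 27 libraries compared lines. Standard errors are the fold change divided by the square root of F. Ratios between paralogs used counts plus 0.5 and exact permutation in SciPy 1.17.1, adjusted over 21 tests. Sequences and 3′ ends were read from GRCh37 at the coordinates of the count table, leaving out 13 symbols on more than 1 chromosome or strand. Scripts were tested on simulated data.

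The 50 genes, their roles, the pairs and the list of 59 other genes were chosen with earlier results of these data known. Named with values in every library are genes called in the same direction in all lines or in opposite directions in a pair of lines, and the 3 called genes with the highest and the 3 with the lowest fold change of each line. From the other list, genes called in the same direction in all lines are named. Alternatives were other scalings, filters and fits, DESeq2 1.42.0, each hairpin alone, a block for the replicate number and each library left out. Same-numbered libraries correlated by over 0.1 in 3 of 9, 3 of 9 and 1 of 9 pairs of groups and numbers, so the numbers were not treated as pairing the samples. In LNCaP, LNCaP95 and 22Rv1 the highest correlation was 0.244, 0.275 and 0.196 for same-numbered libraries and 0.0665, 0.225 and 0.253 for others. Whether replicate numbers mark a shared effect, as the LNCaP values may, was not tested. Results for some of the cell type markers are not reported here.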

Additional observations from a re-analysis of the deposited data

Results flagged for a closer look

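The knockdown effect of a named gene differed between lines, by the interaction term of the edgeR fit, in 23 of 45 comparisons over 15 named genes. The shares over all genes were 50.9%, 40.4% and 53.7% in the comparisons below, and some of the 15 were named for opposite calls between lines, so the count is a description. As the log2 effect in LNCaP95 minus that in LNCaP, 9 were called: UPF3B at −0.45, SMG9 at −0.50, TTC37 at −0.38, CNOT3 at −0.52 and DCP2 at −0.39 on the lower side, and DIS3L at 0.78, DCP1B at 0.62, CNOT10 at 0.47 and SKIV2L2 at 0.40 on the higher. For 22Rv1 minus LNCaP the 5 called were CNOT8 at 0.54, EXOSC7 at 0.44, SMG9 at −0.39, TTC37 at −0.34 and PAPD5 at −0.31. For 22Rv1 minus LNCaP95 the 9 called were CNOT8 at 0.67, EXOSC7 at 0.53, DCP2 at 0.42, UPF3B at 0.39 and CNOT3 at 0.36 on the higher side, and DIS3L at −0.67, CNOT10 at −0.52, DCP1B at −0.39 and SKIV2L2 at −0.30 on the lower.

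The log2 ratio of DIS3 to DIS3L was higher in all 6 knockdown libraries of LNCaP, by 0.533, and lower in all 6 of LNCaP95, at −0.611. The difference between these lines was not tested.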

How the results depend on the processing

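Alternatives were run for 33 called results of single genes, those named with values in every library. Of 660 alternatives, 623 kept the direction and the side of the threshold, 37 kept the direction only and 0 reversed. The other single-gene results entered the alternatives only through the counts. Of the counts, genes higher in 22Rv1 (10) were 16 with the hairpins as separate groups, 2 with CPSF1 sh1 only and 23 with CPSF1 sh2 only, and 3 to 19 with single libraries left out. Those lower there (4) were 7 with CPSF1 sh2 only and 3 to 6 with a library left out. In LNCaP95 those lower (20) were 13 with library size alone. Genes differing between hairpins were 5 with DESeq2 and 2 to 8 with a library left out in LNCaP (8), and 2 with DESeq2, 3 with the replicate block and 1 to 11 with a library left out in 22Rv1 (5). In the 22Rv1 comparison the low values came without replicate 2 of CPSF1 sh1 (2) or replicates 1, 2 and 3 of CPSF1 sh2 (1, 1 and 2), and the high value without replicate 1 of CPSF1 sh1. In LNCaP they came without replicate 1 or 2 of CPSF1 sh1 or replicate 3 of CPSF1 sh2 (2 each) or replicate 2 of CPSF1 sh2 (4). Leaving out a library left 0 to 7 changed pair ratios in LNCaP, 0 in LNCaP95 and 0 to 3 in 22Rv1, since fewer splits raise the smallest p, so these say nothing of stability. With the replicate block LNCaP had 17 genes higher and 12 lower, LNCaP95 had 12 and 20, and 22Rv1 had 7 and 4; no paired test of the ratios could reach the threshold. The scalings by role in LNCaP95 were chosen after seeing the data. The cause of these changes was not tested otherwise. How depth limits these calls was not tested.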
